A study of Mus musculus with 4 samples.

Results

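The granins and the enzymes that mature neuropeptides were examined in sorted retinal interneurons, as every probe set annotated to exactly 1 gene among Chga, Chgb, Scg2, Scg3, Scg5, Vgf, Resp18, Pcsk1, Pcsk2 and Cpe. Of these 10 genes, 9 had such a probe set, with 10 probe sets among the 34945 that name a single gene. Pcsk2 had none in the annotation used and was not analysed here. The genes were picked for their shared role, not for a measured value, though earlier results of these data were known.

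The RNA came from 4 samples of CFP-positive retinal neurons of mice at postnatal day 6, all from litters of MP transgene males and non-carrier females on a mixed C57Bl6 x CD1 background. MP amacrine cells were the CFP-positive, VC1.1-positive cells (2 samples), and MP bipolar cells were the CFP-positive, VC1.1-negative cells left after magnetic depletion with the same antibody (2 samples). VC1.1 labels amacrine cells, the inhibitory interneurons of the inner retina, but not bipolar cells, which relay photoreceptor signals. Each sample held about 1000 cells, the replicates of a group came from different litters, and each was hybridised to 1 Affymetrix array. The sources used here do not give the promoter that drives the MP transgene, and in such sorted pools fewer cells of a type and less RNA per cell cannot be told apart.

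Neuropeptides are made as larger precursors, packed into dense-core vesicles and cut inside them. Granins are acidic proteins that condense in the Golgi apparatus and help form these vesicles, and several are themselves precursors of bioactive peptides. Prohormone convertases cut at pairs of basic residues, and carboxypeptidase E trims the basic residues left behind. Many amacrine types are known to release neuropeptides beside GABA or glycine, whereas bipolar cells are mainly known for glutamate release.

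Of the 9 genes, 1 was higher and 2 were lower in MP amacrine cells than in MP bipolar cells, and the other tested genes did not pass the test. Resp18 was higher in amacrine cells by 5.01 on the log2 scale, while Scg3 and Scg2 were lower there, with log2 fold changes of -2.10 and -2.01, close to 4-fold. The remaining 4 tested genes were Chga, Chgb, Scg5 and Cpe, and 2 genes, Vgf and Pcsk1, were too dim to be tested. The genes thus differed from each other in direction, and their median log2 fold change of -0.09 lay near that of all tested genes, -0.03.

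The test was limma with Benjamini-Hochberg adjustment over 11583 genes, on log2(intensity + 16), with a call at an adjusted p under 0.05. Among all tested genes 13.5% were called, 6.54% as higher and 6.92% as lower in amacrine cells, against 3 of 7 granin and processing genes. The amacrine and bipolar arrays did not overlap for 5 of the 7, where 53.3% of all tested genes showed no overlap. Tested singly, the probe sets gave the same 3 calls of 7, and 5 of 7 without overlap, beside 10.2% of all 19168 tested probe sets called (5.04% higher and 5.19% lower) and 51.8% without overlap. Without MP bipolar replicate 2, 917 genes in place of 1559 were called, and the granin and processing genes called were still Resp18, Scg3 and Scg2, though singly tested probe sets gave 2 calls.

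**Figure D1:**
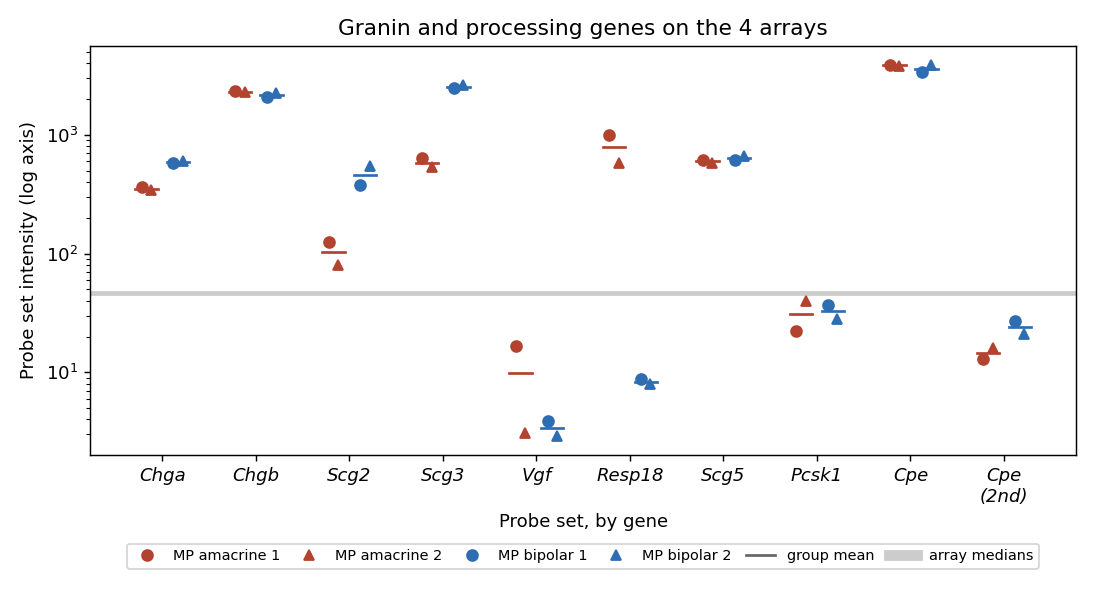
Intensity of each probe set of the granin and processing genes on the 4 arrays (log axis), with MP amacrine arrays left of MP bipolar arrays, a short line at each group mean and a grey band over the array medians of 44.5 to 47.1. Resp18 stands at 1002 and 584 on the amacrine arrays, against 8.72 and 7.93 on the bipolar arrays, Scg2 and Scg3 are lower on both amacrine arrays, and Vgf, Pcsk1 and the 2nd Cpe probe set lie under the band on all 4.

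Resp18 encodes a secretory pathway protein first described in rat endocrine tissue, related in sequence to the luminal part of the granule membrane protein Ptprn. Its probe set read 1002 and 584 on the MP amacrine arrays, against 8.72 and 7.93 on the MP bipolar arrays. Both amacrine arrays were thus far above both bipolar arrays, and the amacrine arrays also differed from each other. The log2 fold change was 5.01, with an SE of 0.28 and a 95% interval of 4.36 to 5.65 (adjusted p = 2.71e-05, limma). Resp18 lay above the array median, the bar for testing, on the 2 amacrine arrays only. It thus entered the test through the group where it is high. With no such bar its adjusted p was 0.0052 (limma).

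The size of the Resp18 difference depends on how the dim bipolar values are treated. The ratio of the group mean intensities was 95.2, whereas the fold on the log2(intensity + 16) scale was 32.1, because the offset of 16 is larger than the bipolar values. With an offset of 1 the log2 fold change was 6.36, and with an offset of 64 it was 3.52. The table carries no detection calls, and on the bipolar arrays the probe set was brighter than as few as 17.3% of probe sets.

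Scg3 encodes secretogranin III, a granin that binds Chga and cholesterol-rich vesicle membranes. Its intensities were 638 and 531 on the MP amacrine arrays, against 2471 and 2610 on the MP bipolar arrays. Both groups were tight and well apart. The log2 fold change was -2.10 (SE 0.18, 95% interval -2.50 to -1.69, adjusted p = 0.000182, limma), with 4.27-fold more signal in bipolar cells.

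Scg2 encodes secretogranin II, the precursor of the peptide secretoneurin. It read 124 and 80.7 on the MP amacrine arrays, against 378 and 544 on the MP bipolar arrays. The lowest bipolar array stood well above the highest amacrine array, with a wider spread within groups than for Scg3. The log2 fold change was -2.01 (SE 0.28, 95% interval -2.66 to -1.36, adjusted p = 0.0024, limma), or 4.03-fold more signal in bipolar cells. Among all tested genes Scg3 and Scg2 ranked 181st and 197th from the lowest fold change.

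Neither of the chromogranin genes, Chga and Chgb, passed the test. Chga, the source of vasostatin and catestatin, read 360.02 and 341 on the MP amacrine arrays, against 574 and 599 on the MP bipolar arrays. The amacrine arrays were both below the bipolar arrays, with a log2 fold change of -0.72 (SE 0.21, 95% interval -1.21 to -0.23), yet the adjusted p of 0.0644 (limma) missed the threshold. Chga was called under 2 of the 17 other settings. With only brighter probe sets tested, above the 75th percentile of the array, the adjusted p was 0.0447 (limma). When all probe sets of each gene were averaged, it was 0.0467 (limma). In both, the log2 fold change stayed at -0.72, since Chga has only 1 probe set. With quantile normalization the adjusted p was 0.0972 (limma).

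Chgb, the other chromogranin, read 2341 and 2281 on the MP amacrine arrays, against 2098 and 2271 on the MP bipolar arrays. The groups nearly touched. Its log2 fold change was 0.08 with a 95% interval of -0.21 to 0.38 (adjusted p = 0.776, limma), an interval that excludes a difference of the size seen for Scg3.

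Vgf, a neurotrophin-induced granin-like precursor, lay below the array median on all 4 arrays. It read 16.6 and 3.06 on the MP amacrine arrays, against 3.85 and 2.90 on the MP bipolar arrays. The single higher value belongs to MP amacrine replicate 1, and the groups overlapped.

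The processing genes showed no called difference, and neither Cpe nor Scg5 had an unadjusted p under 0.05 (limma). Cpe read 3912 and 3785 on the MP amacrine arrays, against 3393 and 3841 on the MP bipolar arrays, with overlapping groups. Its log2 fold change was 0.09 with a 95% interval of -0.15 to 0.34 (adjusted p = 0.677, limma). A 2nd Cpe probe set was dim, with 12.9 and 16.1 on the amacrine arrays, against 27.0 and 20.9 on the bipolar arrays, and was not tested. It lay the other way from the bright probe set, by -0.39 on the log2 scale.

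Scg5 encodes the chaperone that keeps the convertase of Pcsk2 inactive until it reaches the vesicle. Its intensities were 611 and 582 on the MP amacrine arrays, against 609 and 663 on the MP bipolar arrays. These values overlapped, with a log2 fold change of -0.09 and a 95% interval of -0.56 to 0.38 (adjusted p = 0.854, limma). Pcsk1, the convertase of the early secretory granule, read 22.1 and 39.96 on the amacrine arrays, against 37.2 and 27.9 on the bipolar arrays, below the array medians throughout, and was not tested.

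**Figure D2:**
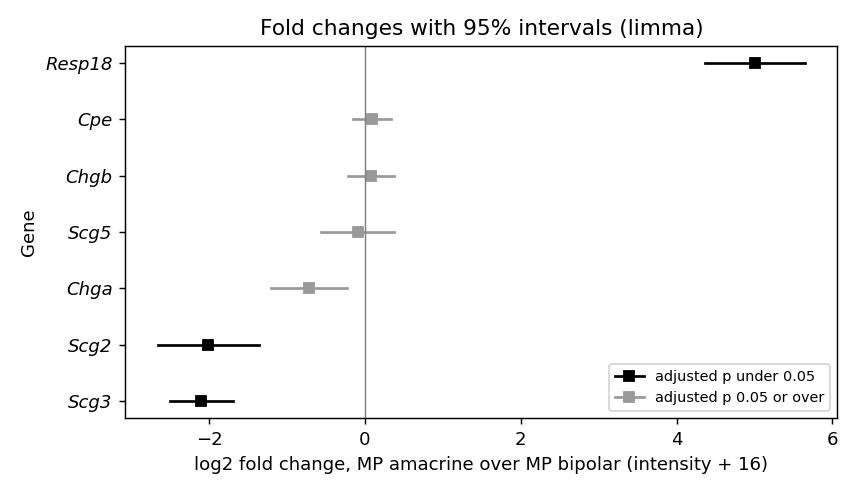
Log2 fold change, MP amacrine over MP bipolar on the log2(intensity + 16) scale, of the 7 tested genes, with 95% intervals from limma. Resp18 at 5.01 lies far to the right, Scg2 and Scg3 lie near -2 with intervals that end below -1, Chga lies at -0.72, and the intervals of Cpe, Chgb and Scg5 cover 0.

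By the root mean square difference of centred log2 values over the 4 arrays, the 3 genes most like Resp18 were Slc2a13, Gas1 and Chn2. Slc2a13, a myo-inositol transporter, was 0.21 away and had a log2 fold change of 4.99. The membrane protein gene Gas1 was 0.25 away, with 4.69, and the Rac regulator gene Chn2 was 0.29 away, with 5.03. The likeness rests on the probe set chosen for each gene, since another bright probe set gave 0.96 for Gas1 and 3.11 for Chn2. With 4 arrays it says little beyond the fold change.

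The promoters of 8 of the 10 genes were available from RefSeq (GRCm38.p6), each as a window of 250 bases before to 50 after the transcript start. The 250 upstream bases of the 3 genes that differed are shown, with those of Chgb, which shares a motif with Scg2 but was not called. Capitals mark the letters TGACG on either strand, the half-site of the cyclic AMP response element (CRE), whose full palindrome is TGACGTCA, as well as the core TATAA and the E-box CAGCTG, a site type bound by bHLH factors.
Resp18, chr1:75278416-75278665, minus strand: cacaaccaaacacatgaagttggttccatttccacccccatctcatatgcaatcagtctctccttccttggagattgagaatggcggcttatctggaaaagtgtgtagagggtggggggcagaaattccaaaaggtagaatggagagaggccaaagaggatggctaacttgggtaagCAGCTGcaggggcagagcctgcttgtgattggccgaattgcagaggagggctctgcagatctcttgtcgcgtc
Scg2, chr1:79440027-79440276, minus strand: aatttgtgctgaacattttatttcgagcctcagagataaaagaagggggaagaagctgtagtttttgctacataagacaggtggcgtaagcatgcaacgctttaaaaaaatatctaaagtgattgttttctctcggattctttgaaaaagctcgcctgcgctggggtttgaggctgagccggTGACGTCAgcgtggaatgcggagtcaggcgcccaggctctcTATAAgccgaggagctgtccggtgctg
Scg3, chr9:75684057-75684306, minus strand: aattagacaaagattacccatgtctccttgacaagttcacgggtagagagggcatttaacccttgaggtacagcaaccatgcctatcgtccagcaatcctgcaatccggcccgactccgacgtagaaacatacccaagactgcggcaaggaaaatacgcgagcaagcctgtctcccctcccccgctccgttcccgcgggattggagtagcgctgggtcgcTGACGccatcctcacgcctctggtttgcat
Chgb, chr2:132781392-132781641, plus strand: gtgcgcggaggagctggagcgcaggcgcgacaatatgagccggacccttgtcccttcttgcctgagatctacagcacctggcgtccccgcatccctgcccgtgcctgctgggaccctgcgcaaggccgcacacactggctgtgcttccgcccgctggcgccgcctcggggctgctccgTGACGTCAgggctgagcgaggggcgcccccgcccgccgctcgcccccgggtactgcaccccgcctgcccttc

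The full CRE palindrome TGACGTCA was present in 3 of the 8 windows, those of Scg2, Chgb and Pcsk1, and in 1.79% of all 32851 promoter windows. Its first base lay 68 bases before the start in Scg2, 72 in Chgb and 78 in Pcsk1. Of these 3 genes only Scg2 had a called difference, lower in amacrine cells. Chgb did not pass the test, and Pcsk1 was too dim to be tested. The half-site TGACG, counted also inside the palindrome, was found in 7 of the 8 windows, all but Resp18, and in 20.8% of all windows.

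The E-box CAGCTG was found in the windows of Resp18, Chga, Chgb and Pcsk2, and in 16.3% of all windows. In Resp18 it lay 73 bases before the start, and in Chgb it lay after the start, from base 31. TATAA was found in Scg2 and Chga, and in 24.9% of all windows. Its first base lay 27 bases before the start in Scg2, but after the start, at base 6, in Chga. The letters TTCAGCACC, which form the left arm of the RE1 element bound by the repressor Rest, were found across the start of Scg2 alone among the 8, and in 0.371% of all windows. All motifs were searched on both strands, and a match describes letters only.

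**Figure D3:**
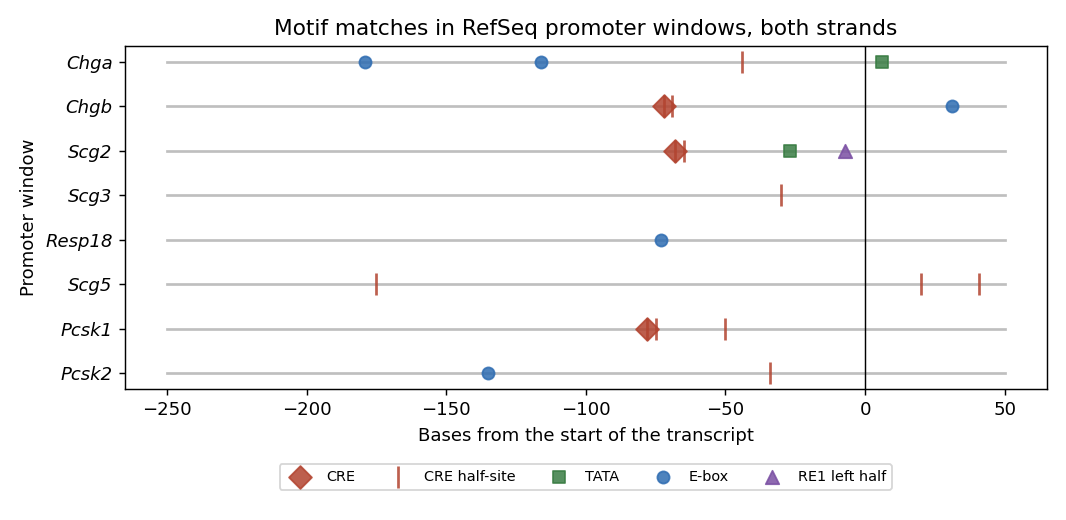
Positions of motif matches on either strand in the 8 promoter windows, in bases from the transcript start (vertical line). Diamonds for the full CRE fall between 78 and 68 bases before the start in Chgb, Scg2 and Pcsk1, and Resp18 holds a single E-box and no CRE half-site.

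Among the other genes of the pathway, 15 of 71 tested members of 5 lists were called, 11 higher and 4 lower in MP amacrine cells. That is 21.1%, beside 13.5% of all tested genes. The calls went both ways among other processing enzymes and dense-core vesicle genes, and 1 way among the transcriptional regulators.

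Neuropeptide precursors were mostly too dim to be tested, 30 of 39 on the array. Of the 9 tested, none was called (limma), beside 13.5% of all tested genes. Among the 9, only Grp (log2 fold change -1.02) had an unadjusted p under 0.05, at 0.034 (limma). Their median log2 fold change was -0.06. The brightest tested member was the oxytocin precursor Oxt, with 200.16 and 217 on the MP amacrine arrays, against 164 and 188 on the MP bipolar arrays (log2 fold change 0.23, adjusted p = 0.603). Of the 30 dim precursors, 27 lay below the median on every array. The exception by size was Npy, the neuropeptide Y precursor, named here after its values were seen, with 773 and 25 on the amacrine arrays, against 18.6 and 24.1 on the bipolar arrays. Only MP amacrine replicate 1 carried that signal.

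Of 12 tested genes of other processing enzymes, 1 was higher and 1 was lower, with a median of 0.04. These counts stand beside 6.54% and 6.92% of all tested genes called higher and lower. Pam, which amidates peptide ends, read 1581 and 1367 on the MP amacrine arrays, against 716 and 623 on the MP bipolar arrays. The groups were clearly apart, and limma gave a log2 fold change of 1.12 with an SE of 0.19 and an adjusted p of 0.00602. Qpct, the glutaminyl cyclase that caps peptide starts, read 84.0 and 26.8 on the amacrine arrays, against 434 and 375 on the bipolar arrays (log2 fold change -2.68, SE 0.38, adjusted p = 0.00238, limma). It was -2.01 with an offset of 64 and -3.29 without MP amacrine replicate 1, and its adjusted p was 0.0523 without the filter on dim probe sets. Of 6 tested peptide degrading enzymes 1 was called higher, where 6.54% of all tested genes were. This was the metalloprotease gene Ece1, with a log2 fold change of 0.76 as the mean of all its probe sets. Only its brightest probe set passed the filter. It read 831 and 839 on the amacrine arrays, against 392 and 238 on the bipolar arrays (log2 fold change 1.40, SE 0.27, adjusted p = 0.011), with an adjusted p of 0.0679 without MP bipolar replicate 2 and 0.0719 without the filter.

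Of 24 tested dense-core vesicle genes, 2 were higher and 3 lower, with a median of 0.01, where 6.54% and 6.92% of all tested genes were called higher and lower. The CAPS proteins prime dense-core vesicles for release, and both of their genes were lower in amacrine cells. Cadps read 1403 and 1246 on the MP amacrine arrays, against 4223 and 4666 on the MP bipolar arrays (log2 fold change -1.74, SE 0.13, adjusted p = 0.000114, limma). Cadps2 read 124 and 100.15 on the amacrine arrays, against 272 and 321 on the bipolar arrays (-1.29, SE 0.23, adjusted p = 0.00739), and its adjusted p was 0.0737 without MP bipolar replicate 2. Stxbp5, which encodes the SNARE-binding protein tomosyn, was the 3rd gene lower in amacrine cells (-1.88, SE 0.20), in its 2 other bright probe sets too.

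The dense-core vesicle genes higher in amacrine cells were Cyb561 and Syt7. Cyb561, a granule membrane cytochrome that regenerates ascorbate inside the vesicle, read 131 and 115 on the MP amacrine arrays, against 5.30 and 18.2 on the MP bipolar arrays (log2 fold change 2.36, SE 0.26, adjusted p = 0.000766, limma). Its bipolar values were below the array median, and the log2 fold change was 1.31 with an offset of 64 and 3.49 with an offset of 1. Syt7, a calcium sensor of slow release, read 306 and 362 on the amacrine arrays, against 87.1 and 80.2 on the bipolar arrays (1.81, SE 0.22, adjusted p = 0.0011). Its 2 other bright probe sets had the same sign, and 1 of them, at 3.95, was larger. With an offset of 64 a different probe set had the highest mean and stood for Syt7, with a log2 fold change of 3.02. That value does not show the effect of the offset alone. The remaining 19 tested vesicle genes were not called.

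Of 20 tested transcriptional regulators, 7 were higher and none was lower in MP amacrine cells (limma), with a median of 0.41. Of the 7, Nhlh2, Myt1l, Scrt2 and Nhlh1 were above the array median on the amacrine arrays alone. They thus entered the test through the group where they were high. Scrt2 and Nhlh1 are named here after their values were seen. Of all tested genes, 6.54% were called higher and 6.92% lower. 1 regulator with a negative log2 fold change, Rest, had an unadjusted p under 0.05. The largest was Nhlh2, a bHLH factor known to act on Pcsk1 in mouse hypothalamus, with 2165 and 2598 on the amacrine arrays, against 30.8 and 34.3 on the bipolar arrays (log2 fold change 5.62, adjusted p = 1.29e-05, limma). Pcsk1 itself was dim in both groups, as given above. With an offset of 64 the log2 fold change of Nhlh2 was 4.66, and with an offset of 1 it was 6.15. Myt1l and St18, zinc finger factors of neurons, followed with 4.67 and 3.96. Their other bright probe sets gave smaller values of the same sign, 3.62, 0.99 and 1.82 for Myt1l and 0.50 (adjusted p = 0.263, limma) for St18, and the mean over all probe sets of each gene gave 2.28 and 2.23.

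The genes of the repressor that binds RE1, of a CRE-binding factor and of a neuroendocrine zinc finger factor were not called, and are named for their role after their values were seen. Rest read 61.5 and 43.9 on the MP amacrine arrays, against 102.6 and 81.6 on the MP bipolar arrays (log2 fold change -0.66, adjusted p = 0.114, limma). The CRE-binding factor gene Creb1 had a log2 fold change of -0.25 (adjusted p = 0.409), and the neuroendocrine zinc finger gene Insm1 had -0.12 (adjusted p = 0.844). For Creb1 and Insm1 another bright probe set had the opposite sign.

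**Figure D4:**
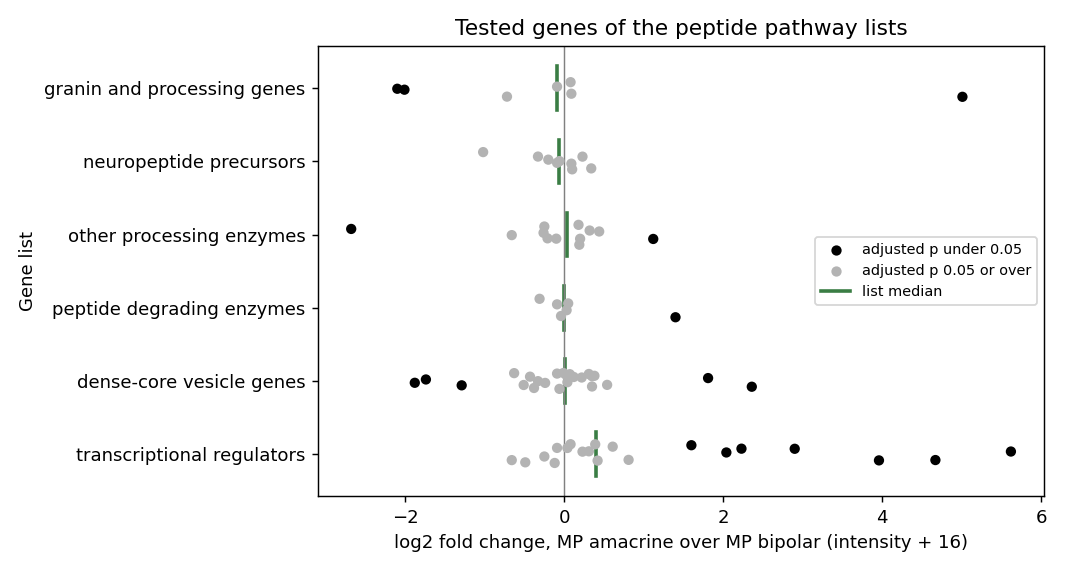
Log2 fold change, MP amacrine over MP bipolar on the log2(intensity + 16) scale, of each tested gene of the granin and processing set and of the 5 pathway lists, with called genes in black, others in grey and the list median as a line. Called genes of the set, of the processing enzymes and of the dense-core vesicle list lie on both sides of 0, and the 7 called regulators all lie to the right.

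The sorted cells were checked against defining markers. Of 7 tested amacrine markers 6 passed as higher in the MP amacrine group, beside 6.54% of all tested genes. Among them Tfap2b and Tfap2c were above the array median on the amacrine arrays alone. The summed intensity of the 8 amacrine markers on the array was 4463 to 4631 in amacrine cells and 494.7 to 532.2 in bipolar cells. Of 6 tested bipolar markers 5 were lower, beside 6.92% of all tested genes, and Prkca (0.25) was not called. Sums over 7 markers were 2384 to 2676 in amacrine cells and 10210 to 10320 in bipolar cells. On the amacrine arrays that sum was mostly Otx2 (1523 and 1646). Tfap2b, Tfap2c, Prkca and Otx2 are named after their values were seen. The bipolar marker Trpm1 was below the array median on every array.

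Markers of other cells gave signal on all arrays, though without detection calls a sum does not show that such cells were present. The sums were 3994 to 4481 in amacrine and 2142 to 2658 in bipolar cells over 7 Müller glia markers, 4235 to 6513 and 4184 to 4985 over 6 photoreceptor markers, and 768.1 to 3040 and 183.2 to 1295 over 5 microglia markers. They were 1912 to 3905 and 2828 to 3707 over 8 ganglion cell markers, and 550.7 to 807.4 and 236.3 to 323.5 over 4 horizontal cell markers. Low sums were seen over 2 astrocyte markers (45.66 to 54.32 and 58.42 to 58.58) and 3 endothelial markers (75.22 to 75.44 and 60.83 to 67.36). On the bipolar arrays the Müller glia sum was mostly Glul (1594 and 1937), and the ganglion cell sum mostly Thy1 (2462 and 3415). Of 6 tested Müller glia markers 2 were called higher in amacrine cells, Vim (3.19, adjusted p = 0.000486, limma) and Dkk3 (1.60, adjusted p = 0.00174). Of 6 for ganglion cells 1 was called lower, Thy1 (-1.41, adjusted p = 0.0131). Over all tested genes 6.54% were called higher and 6.92% lower. At an unadjusted p under 0.05 (limma), 4 Müller glia markers were higher and 1, Clu (-0.84), was lower. For ganglion cells 3 were higher, Nefm (3.13), Nefl (2.23) and Pou4f1 (1.08), and only Thy1 was lower. None of the tested photoreceptor, microglia and horizontal cell markers was called. Vim, Dkk3, Thy1, Glul, Clu, Nefm, Nefl and Pou4f1 are named after their values were seen. None of these markers was at or below an intensity of 1 on all 4 arrays, which does not show that they were expressed. Their part in the granin results was not tested.

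In both groups the 2 arrays differed from each other in some of these markers. On MP bipolar replicates 1 and 2 the microglia marker Ctss read 1003 and 2.27. The photoreceptor marker Gnat1 read 24.95 and 119.98 there, and both genes are named after their values were seen. Nefm, a neurofilament gene of the ganglion cell list, read 1631 and 136 on MP amacrine replicates 1 and 2, and the horizontal cell marker Calb1 read 517 and 39.5, both named after their values were seen. Npy, Vgf and Resp18 were also higher on MP amacrine replicate 1. MP amacrine replicate 2 had the widest gap between the 3-prime and 5-prime Gapdh control probe sets, 3.21 on the log2 scale, against 1.78 on replicate 1 and 1.95 and 2.0 on the bipolar arrays. The Resp18 log2 fold change was 4.62 without amacrine replicate 1 and 5.39 without replicate 2, that of Scg2 was -2.28 and -1.74, and that of Scg3 was -2.22 and -1.97, all with an adjusted p under 0.05 (limma).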

How the data were processed

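RNA was extracted with a PicoPure kit, amplified in 2 rounds and biotin-labelled with MessageAmp II, per the labels' protocols. The authors deposited linear intensities of 45101 probe sets, 1 value for each array. The sources used here do not give how these were summarised and scaled. Array quartiles lay within 0.084 of each other on the log2 scale, so the values were used as deposited. The number of arrays limits the precision.

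Of 45037 probe sets that are not controls, 34945 name 1 gene, 932 several and 9160 none. RefSeq held 18032 of the 18194 genes and changed 0 symbols. The probe set with the highest mean log2(intensity + 16) stood for a gene, and was tested when above the array median on at least 2 arrays. Groups were compared with limma 3.58.1 in R 4.3.3 (eBayes with intensity trend, two-sided, 2 residual degrees of freedom), adjusted by Benjamini-Hochberg over 11583 genes, and tested on simulated data. An exact permutation test of 2 against 2 cannot go below p = 0.333, so none was used.

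The members, lists and tests were chosen with earlier results of these data known. Named genes were the members, up to 3 called genes per list and direction (or the brightest tested gene), and the 3 genes most like the member with the largest fold change. The alternatives were other scalings, offsets, filters, probe set choices, variance moderation, a fold threshold, a replicate block and each replicate left out.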

Additional observations from a re-analysis of the deposited data

How the results depend on the processing

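Under the 17 other settings, Resp18, Scg3 and Scg2 each kept their direction and an adjusted p under 0.05 (limma), with log2 fold changes of 3.52 to 6.36, -2.22 to -1.97 and -2.28 to -1.65. Of the granin and processing genes, 3 or 4 were called under every setting, the 4th being Chga where it occurred. Chgb (0.02 to 0.18), Scg5 (-0.15 to 0.00) and Cpe (-0.15 to 0.19) were not called under any. Without the filter on dim probe sets, which adds genes to the test, 785 of 18194 genes were called, and Vgf (0.36, adjusted p = 0.569) and Pcsk1 (-0.06, adjusted p = 0.932) did not pass. Leaving out each array in turn gave 917 to 1939 calls over all genes, the lowest without MP bipolar replicate 2. When every probe set was tested singly, 3 of the 7 tested probe sets of these genes were called, and 2 without the filter or without MP bipolar replicate 2. Without the filter, the lost call was 1 of the 2 lower ones. The cause was not tested. With the replicate block 1932 genes were called, and the calls among the granin and processing genes were the same. The numbers are no known pairing: same-numbered arrays deviated from their group means with a correlation of -0.042 over 11583 genes. Low signal limits Vgf, Pcsk1, the bipolar values of Resp18, Cyb561 and Nhlh2, and most peptide precursors. Resp18, Cyb561, Nhlh2, Myt1l, Scrt2, Nhlh1, Tfap2b, Tfap2c, Slc2a13 and Chn2 were above the array median on the amacrine arrays alone. They entered the test through the group where they were high.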
